A study of Mus musculus with 19 samples.

Results

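The Dlk1-Dio3 cluster is an imprinted domain of mouse chromosome 12, and its expression was described here in 10 lines of mouse induced pluripotent stem cells (iPSCs) through 6 genes. The members were taken by name: the noncoding RNAs Meg3, Rian and Mirg and the protein-coding genes Dlk1, Rtl1 and Dio3, each a single row among the 52143 gene rows of the count table. All 6 were among the 19700 genes that passed the filter on low counts. The set was chosen by its read counts in these same corrected, db/db and control lines, so differences between groups are given as levels and fold changes with errors, with no p-value.

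In an imprinted cluster, each gene is transcribed mainly from the allele inherited from a given parent, and a methylated control region between Dlk1 and Meg3 sets which allele is used. The maternal allele gives Meg3, Rian and Mirg, long noncoding RNAs whose introns and exons carry small nucleolar RNAs and a large set of miRNAs. The paternal allele gives Dlk1, Rtl1 and Dio3. In mouse iPSCs this cluster is known as a quality mark, because lines with silenced maternal RNAs contributed poorly to chimaeric mice.

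The corrected group held 2 lines (db_c_1 and db_c_2), which were db/db iPSCs after CRISPR-Cas9 gene correction. The db/db group held 4 lines (adb_db7, bdb_db7, adb_db5 and bdb_db5), and db/db mice are homozygous for a mutation of the leptin receptor gene. The control group held 4 wild-type lines (aB6_B1, bB6_B1, aB6_A5 and bB6_A5). The db/db and control lines came from embryonic day 14.5 fibroblasts of embryos bred from OB-Rdb/+ heterozygotes, and were reprogrammed with a STEMCCA lentivirus that carries Oct4, Sox2, Klf4 and cMyc. Which db/db line was edited to give the corrected lines, and whether each line is a single clone, is not stated in the labels. Poly(A) RNA was sequenced in duplicate libraries, except for aB6_A5 with 1, and the 19 libraries held 27333914 to 41203703 estimated counts each.

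Lines that share the last part of their name were near copies in expression. Levels are given in CPM, counts scaled to a common library size. Over the 9148 genes whose mean level reached 10 CPM, the median absolute log2 difference was 0.0326 to 0.106 in the 5 pairs of the same name (the corrected lines, whose names differ, counted as a pair), 0.147 to 0.222 in 8 pairs of the same group with other names, and 0.138 to 0.319 in 32 pairs of different groups. The highest same-name value, 0.106, was that of adb_db7 and bdb_db7, beside 0.147 for adb_db7 and adb_db5. The A5 lines differed less from the db5 lines (0.138 to 0.142) than from the B1 lines (0.161 to 0.164). If lines of a shared name are a single clone, the db/db and control groups each hold 2 independent lines. The corrected lines, the closest pair at 0.0326, count as 2 lines in every fit here, also when each shared name is counted once, although they may be no more independent. When each shared name was counted once, 34 genes were called between db/db and control lines by edgeR's quasi-likelihood test, against 3332 when each line was. In the second library of adb_db7, the ribosomal RNA-related gene Gm42418 took 4.81% of the counts, against 0.0688% to 0.514% in the other libraries, so ratios of the db7 to the db5 lines, and ratios of the members in adb_db7, are also given without it.

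The lines expressed the genes that define pluripotent cells. The summed level of 9 such markers, among them Pou5f1, Sox2 and Nanog, was 5983 and 5999 CPM in the corrected lines, 6600 to 7040 CPM in db/db lines and 6175 to 6827 CPM in control lines. No marker of the 9 was under 1 CPM in a group mean. The lentivirus also carries Oct4 (Pou5f1) and Sox2, and the counts were not split into transgene and endogenous transcripts.

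Meg3 (ENSMUSG00000021268) spans chr12:109541001-109571726 on the plus strand of GRCm38 and is the first of the maternal RNAs. Its level was 37.6 and 41.0 CPM in the corrected lines. The db/db lines held 4.09 and 4.79 CPM in adb_db7 and bdb_db7, and 15.2 and 14.8 CPM in adb_db5 and bdb_db5. The control lines held 49.5 and 46.3 CPM in aB6_B1 and bB6_B1, and 66.8 and 71.2 CPM in aB6_A5 and bB6_A5. The 3 groups did not overlap, and within the db/db group the db7 lines lay apart from the db5 lines. Means were 39.3 ± 2.42 CPM in corrected lines (SD, n = 2), 9.72 ± 6.11 CPM in db/db lines and 58.4 ± 12.4 CPM in control lines (SD, n = 4 each). The fitted log2 fold change was -2.58 ± 0.42 (SE) for db/db against control, 2.01 ± 0.47 for corrected against db/db and -0.57 ± 0.49 for corrected against control. The 3 groups share 1 fit, so the db/db spread enters the error of every comparison, here and for the other members.

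Rian (ENSMUSG00000097451, chr12:109603940-109661716, plus strand) hosts a long array of C/D box small nucleolar RNAs. Its level was 19.5 and 20.6 CPM in the corrected lines, 1.23 and 1.33 CPM in the db7 lines, 7.89 and 7.95 CPM in the db5 lines, and 29.5 to 33.5 CPM in the control lines. The log2 fold change was -2.76 ± 0.56 for db/db against control, 2.12 ± 0.62 for corrected against db/db and -0.65 ± 0.65 for corrected against control. A second row, ENSMUSG00000107391, has no name in the tables used here and held exactly the same value as Rian in every library. Estimated counts divide reads between identical sequences, so the level of Rian is a share, and the sum of both rows was 39.0 and 41.2 CPM in the corrected lines, 2.47 to 15.9 CPM in db/db lines and 59.0 to 67.0 CPM in control lines.

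Mirg (ENSMUSG00000097391, chr12:109729764-109749460, plus strand) is the host RNA of a large miRNA group. It was the least abundant of the maternal RNAs, at 2.62 and 3.07 CPM in the corrected lines, 0.0677 and 0.1251 CPM in the db7 lines, 1.29 and 1.24 CPM in the db5 lines, and 4.43 to 6.48 CPM in the control lines. The db7 values rest on 4 counts in adb_db7 and 8 in bdb_db7, with exact Poisson 95% intervals of 0.0184 to 0.173 and 0.0540 to 0.247 CPM, which cover counting error only. The log2 fold change was -2.91 ± 0.68 for db/db against control, 2.05 ± 0.76 for corrected against db/db and -0.86 ± 0.78 for corrected against control.

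**Figure D1:**
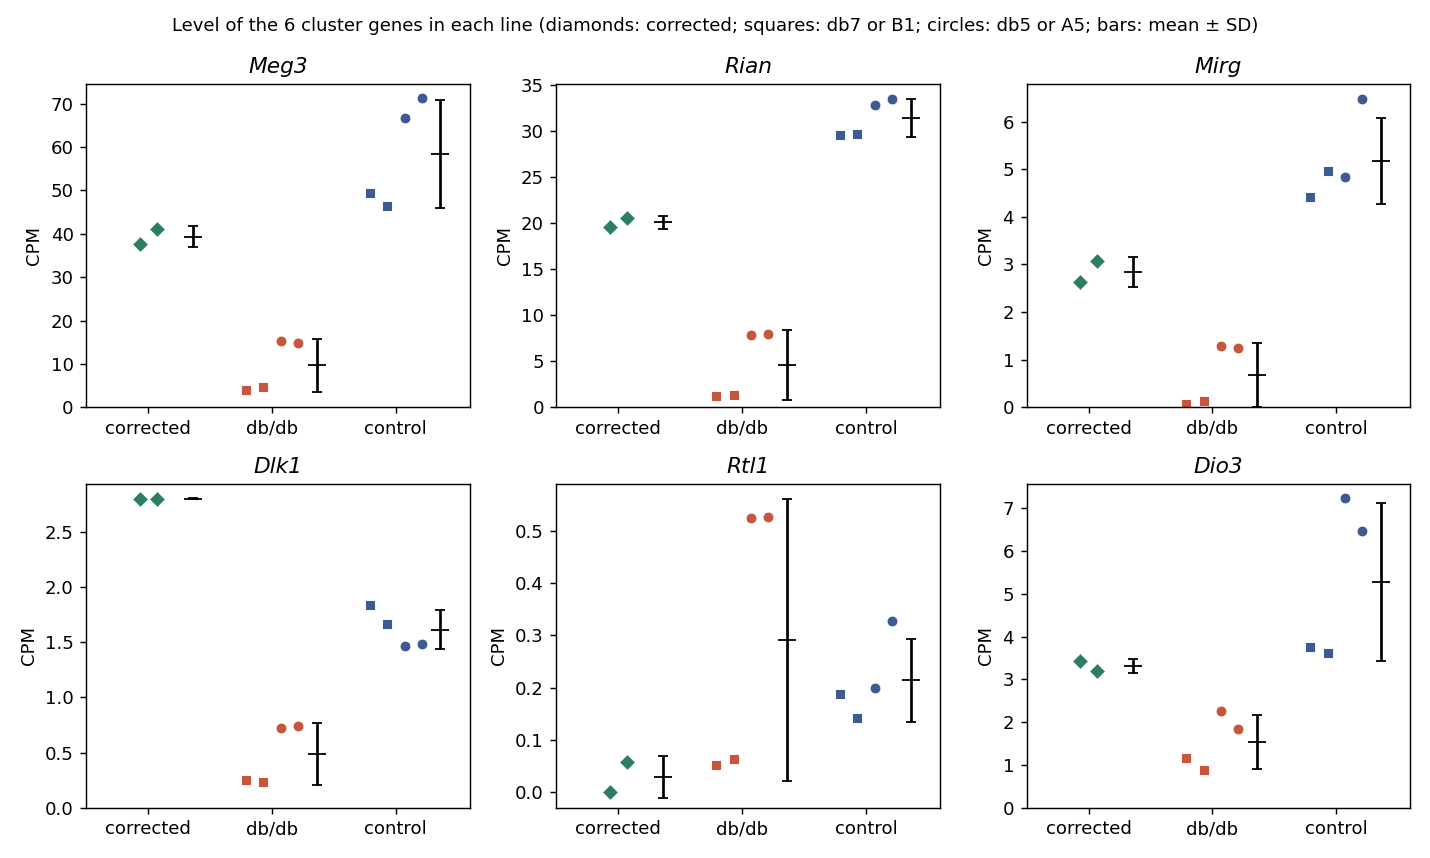
Level of the 6 cluster genes in CPM (y axes, linear, each panel with its own scale) in corrected, db/db and control lines. Each coloured point is a line, diamonds are corrected lines, squares are db7 or B1 lines, circles are db5 or A5 lines, and black bars are group means ± SD; Meg3 stands at 37.6 and 41.0 CPM in corrected lines, 4.09 to 15.2 CPM in db/db lines and 46.3 to 71.2 CPM in control lines.

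Dlk1 (ENSMUSG00000040856, chr12:109452823-109463336, plus strand) encodes a transmembrane protein with EGF-like repeats, related to the Notch ligands, and marks immature cells of many tissues. Its level was 2.81 and 2.80 CPM in the corrected lines. The db7 lines held 0.254 and 0.235 CPM and the db5 lines 0.722 and 0.742 CPM, against 1.46 to 1.84 CPM in the control lines. Unlike in the other members, the fitted difference between corrected and control lines was positive, at a log2 fold change of 0.79 ± 0.39. The groups did not overlap. The log2 fold change was -1.71 ± 0.35 for db/db against control and 2.51 ± 0.40 for corrected against db/db.

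Dio3 (ENSMUSG00000075707, chr12:110279068-110281097, plus strand) encodes the type 3 deiodinase, which inactivates thyroid hormone. Its level was 3.43 and 3.19 CPM in the corrected lines, 1.17 and 0.892 CPM in the db7 lines, 2.27 and 1.84 CPM in the db5 lines, 3.77 and 3.62 CPM in the B1 lines, and 7.25 and 6.46 CPM in the A5 lines. The log2 fold change was -1.77 ± 0.33 for db/db against control, 1.10 ± 0.38 for corrected against db/db and -0.67 ± 0.39 for corrected against control. The corrected lines lay just under the B1 lines, at a ratio of 0.896, and well under the A5 lines, at a ratio of 0.483.

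Rtl1 (ENSMUSG00000085925, chr12:109589193-109600330, minus strand) derives from a retrotransposon and is required in the placenta. It was close to the detection limit, with 0 counts in db_c_1 and 4 in db_c_2, 3 and 4 in the db7 lines, 37 and 34 in the db5 lines, and 8 to 22 in the control lines. These were 0 and 0.0577 CPM in the corrected lines, 0.0507 and 0.0626 CPM in the db7 lines, 0.524 and 0.526 CPM in the db5 lines, and 0.143 to 0.327 CPM in the control lines. The count of 0 in db_c_1 lies under the floor of 3 counts, 0.0392 CPM, and its exact Poisson 95% interval reaches up to 0.0481 CPM. Exact Poisson 95% intervals were 0.0105 to 0.148 CPM in adb_db7 and 0.0170 to 0.160 CPM in bdb_db7, against 0.369 to 0.722 CPM in adb_db5 and 0.364 to 0.735 CPM in bdb_db5. The fitted log2 fold change was 0.46 ± 0.74 for db/db against control lines. It was -3.32 ± 1.26 for corrected against db/db and -2.87 ± 1.29 for corrected against control lines. These 2 values rest on the 4 counts of db_c_2, because db_c_1 is at 0. The db5 lines stood above every other line, and their intervals overlapped those of aB6_A5 (0.0857 to 0.391 CPM) and bB6_A5 (0.205 to 0.495 CPM). The group means of 0.0289 ± 0.0408 CPM (SD, n = 2) in corrected lines, 0.291 ± 0.270 CPM in db/db lines and 0.214 ± 0.0791 CPM in control lines (SD, n = 4 each) therefore hide a split within the db/db group. The transcripts of the opposite strand overlap Rtl1, and since the strand setting of the counting is not given in the sources used here, reads of both strands cannot be told apart.

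Promoter sequences are shown for Meg3, Dlk1 and Dio3, one of the maternal RNAs and the genes at both ends of the cluster, all lower in the db/db lines. They come from RefSeq on GRCm38.p6 and hold 250 bases before and 50 after the RefSeq start, on the plus strand. Capitals mark matches on either strand to the motifs TGACGTCA, the full cyclic AMP response element, TATAAA, the TATA box, CCAAT, and TGCCGC, the core bound by ZFP57 in mouse cells when methylated. The motifs were chosen with the sequences in view.
Meg3, chr12:109540746-109541045: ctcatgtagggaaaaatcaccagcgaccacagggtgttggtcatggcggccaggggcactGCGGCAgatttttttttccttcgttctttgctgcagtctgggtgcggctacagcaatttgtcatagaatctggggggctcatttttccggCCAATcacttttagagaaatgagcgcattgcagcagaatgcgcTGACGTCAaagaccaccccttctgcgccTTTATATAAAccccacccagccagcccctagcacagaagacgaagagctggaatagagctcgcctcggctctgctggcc
Dlk1, chr12:109452573-109452872: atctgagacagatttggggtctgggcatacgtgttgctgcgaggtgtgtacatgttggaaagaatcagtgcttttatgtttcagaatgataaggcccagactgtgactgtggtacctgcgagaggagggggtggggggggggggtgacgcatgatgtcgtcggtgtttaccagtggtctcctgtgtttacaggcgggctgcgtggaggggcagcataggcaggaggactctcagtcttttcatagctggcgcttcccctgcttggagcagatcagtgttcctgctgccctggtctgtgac
Dio3, chr12:110278980-110279279: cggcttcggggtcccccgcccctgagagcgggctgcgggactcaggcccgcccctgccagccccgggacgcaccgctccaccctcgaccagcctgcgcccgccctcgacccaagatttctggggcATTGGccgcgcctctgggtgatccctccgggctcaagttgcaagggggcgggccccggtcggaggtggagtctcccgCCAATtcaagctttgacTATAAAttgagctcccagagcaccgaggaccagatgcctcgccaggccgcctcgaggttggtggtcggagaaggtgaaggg

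The Meg3 promoter held 13 CpG sites, that of Dlk1 9 and that of Dio3 25, beside a median of 7 over 32851 promoters of the same length. TGACGTCA began 57 bases before the start of Meg3 and was held by 1.79% of all promoters. TGCCGC was found 190 bases before the same start (11.6% of promoters), and a pair of overlapping TATAAA matches, on opposite strands, 29 and 25 bases before it (13.6% of promoters). CCAAT lay 100 bases before it, and 125 and 48 bases before the start of Dio3 (37.4% of promoters), and TATAAA lay 31 bases before the start of Dio3. The Dlk1 window held no match. Rian and Mirg also have RefSeq windows, with 0 and 10 CpG sites, but the RefSeq start of Mirg lies 5217 bases from the GENCODE start. That of Dio3 lies 162 bases from its GENCODE start, that of Meg3 5 and that of Dlk1 0. These matches describe letters in a window, and methylation was not measured.

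From low to high, the order of the levels was the same for the 3 maternal RNAs: db7, db5, corrected and control lines. Within a name, the higher line exceeded the lower by up to 1.17 times for Meg3 and 1.08 times for Rian. The neighbouring Meg3 levels of db_c_2 and bB6_B1 (41.0 and 46.3 CPM) differed by less than that, and the B1 and A5 ranges of Mirg overlapped. Per kilobase of exon, group means of Meg3 were 2.17 CPM in corrected lines, 0.538 CPM in db/db lines and 3.23 CPM in control lines. On the same scale Dio3 stood at 1.63, 0.759 and 2.598 CPM per kilobase in those groups, Rian at 1.10, 0.252 and 1.72, Mirg at 0.391, 0.0932 and 0.710, Dlk1 at 0.495, 0.0863 and 0.285, and Rtl1 at 0.00454, 0.0457 and 0.0336. The values of Rian are those of its own row.

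Across all genes tested, 16.9% were called between db/db and control lines (edgeR quasi-likelihood test, Benjamini-Hochberg adjusted p under 0.05), 7.41% as higher and 9.5% as lower in db/db. Of the 6 members, 5 passed that threshold, all lower, and 5 had no overlap between the lines of both groups, as had 23.3% of all genes (12.2% with db/db lower). Between corrected and db/db lines, 4 members passed, all higher, where 36.7% of all genes did (18.7% as higher), and 5 did not overlap, as did not 60.6% of all genes. Between corrected and control lines, 0 members passed, where 33.2% of all genes did, and 6 did not overlap, against 61.7% of all genes (31.3% with corrected lines higher and 30.4% lower). Since the members were chosen with these contrasts known, nothing is read from the counts. When each shared name was counted once, 0, 1 and 0 members passed in these comparisons. With only the compared groups in each fit, so that the third group added no spread, 5, 3 and 4 members passed. Without db_c_1 or without db_c_2, 2 members or 1 passed between corrected and db/db lines. The median log2 fold change of the members was -2.17 for db/db against control, beside -0.001 over all genes tested. It was 2.03 beside 0.021 for corrected against db/db, and -0.66 beside -0.008 for corrected against control.

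**Figure D2:**
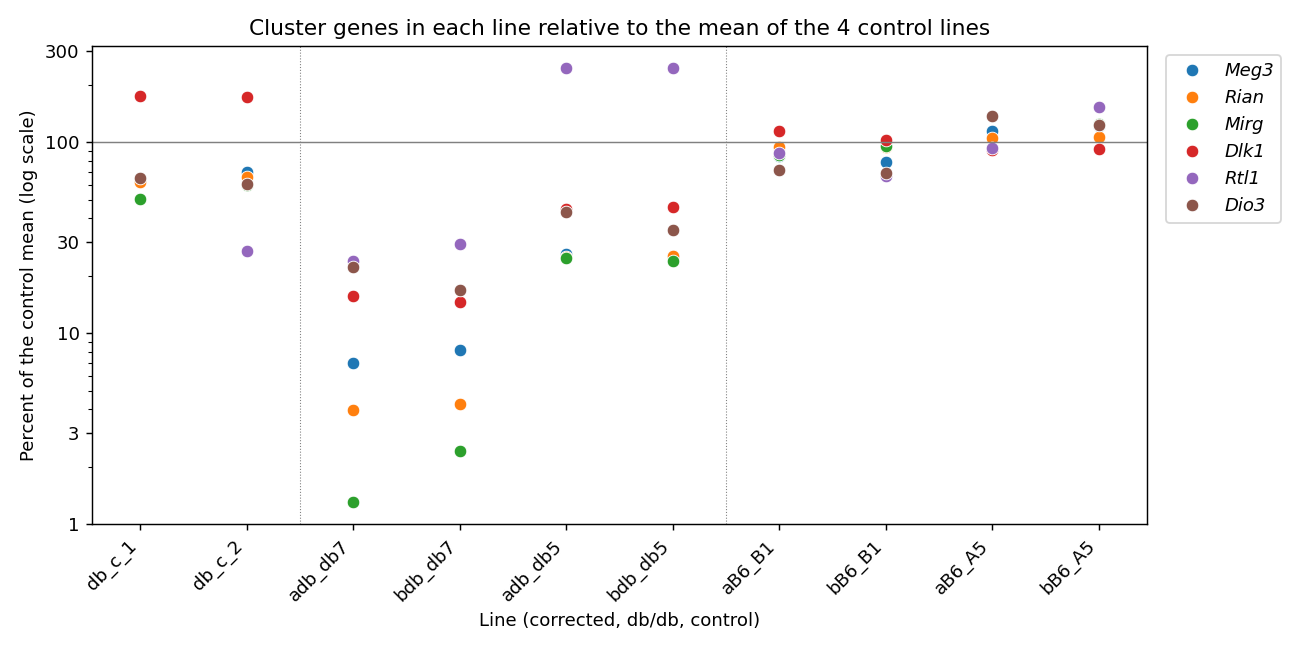
Level of each cluster gene (coloured points) as a percent of the mean of the 4 control lines, on a log scale, for the 10 lines on the x axis, with dotted lines between corrected, db/db and control lines. Rtl1 at 0 in db_c_1 is not drawn; the maternal RNAs lie at 50.7% to 70.2% in corrected lines, 1.31% to 8.19% in db7 lines and 23.9% to 26.0% in db5 lines.

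The db7 lines held less of every member than the db5 lines, and the size of the gap differed between genes. Relative to the db5 mean, the db7 mean was 7.63% for Mirg, 10.8% for Rtl1, 16.2% for Rian, 29.6% for Meg3, 33.4% for Dlk1 and 50.2% for Dio3. Without the second library of adb_db7, the log2 ratio of db7 to db5 was -1.97 for Meg3, -2.80 for Rian, -4.03 for Mirg, -1.73 for Dlk1, -2.80 for Rtl1 and -1.185 for Dio3, against -1.76, -2.63, -3.71, -1.58, -3.21 and -0.996 with it. The control names differed less. Relative to the A5 mean, the B1 mean was 0.539 times for Dio3, 0.627 for Rtl1, 0.694 for Meg3, 0.830 for Mirg, 0.892 for Rian and 1.19 for Dlk1. These ratios have 2 lines on each side and no test.

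The maternal RNAs were not lower by the same factor in the db7 lines. For each 100 counts of Meg3, the Rian row, which holds a share of its reads, had 51.9 and 50.2 counts in the corrected lines, 30.2 and 27.8 in the db7 lines, 52.0 and 53.5 in the db5 lines, and 47.0 to 64.1 in the control lines. Counts of Mirg per 100 of Meg3 were 6.97 and 7.49 in the corrected lines, 1.65 and 2.61 in the db7 lines, 8.49 and 8.33 in the db5 lines, and 7.25 to 10.7 in the control lines. With both Rian rows counted, Meg3 made up 61.7% and 63.2% of the summed level of the maternal RNAs in the db7 lines, against 41.9% to 49.2% in the other lines. In the first library of adb_db7 alone, 32 counts of Rian and 1 of Mirg stood beside 98 of Meg3, or 32.7 and 1.02 per 100. The db5 lines, with 23.9% to 26.0% of the control level of these RNAs, lay within or next to the range of the corrected and control lines in both ratios.

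The paternal genes had other ratios to Meg3. Dlk1 counts per 100 of Meg3 were 7.46 and 6.82 in corrected lines, 4.76 to 6.20 in db/db lines and 2.09 to 3.72 in control lines. For Dio3 they were 9.13 and 7.77 in corrected lines, 28.5 and 18.6 in db7 lines, 14.9 and 12.4 in db5 lines, and 7.62 to 10.9 in control lines. For Rtl1 they were 0 and 0.141 in corrected lines, 1.24 and 1.31 in db7 lines, 3.45 and 3.54 in db5 lines, and 0.298 to 0.459 in control lines. Every db/db line stood above every corrected and control line in the ratios of Dio3 and Rtl1 to Meg3. For Rtl1 in the db7 lines this rests on 3 counts in adb_db7 and 4 in bdb_db7. The second library of adb_db7 held 0 counts of Rtl1 beside 144 of Meg3. The first library of adb_db7 alone gave 7.14 for Dlk1, 31.6 for Dio3 and 3.06 for Rtl1, from 7, 31 and 3 counts. The counts are not split by allele, so which parental copy was transcribed was not measured.

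**Figure D3:**
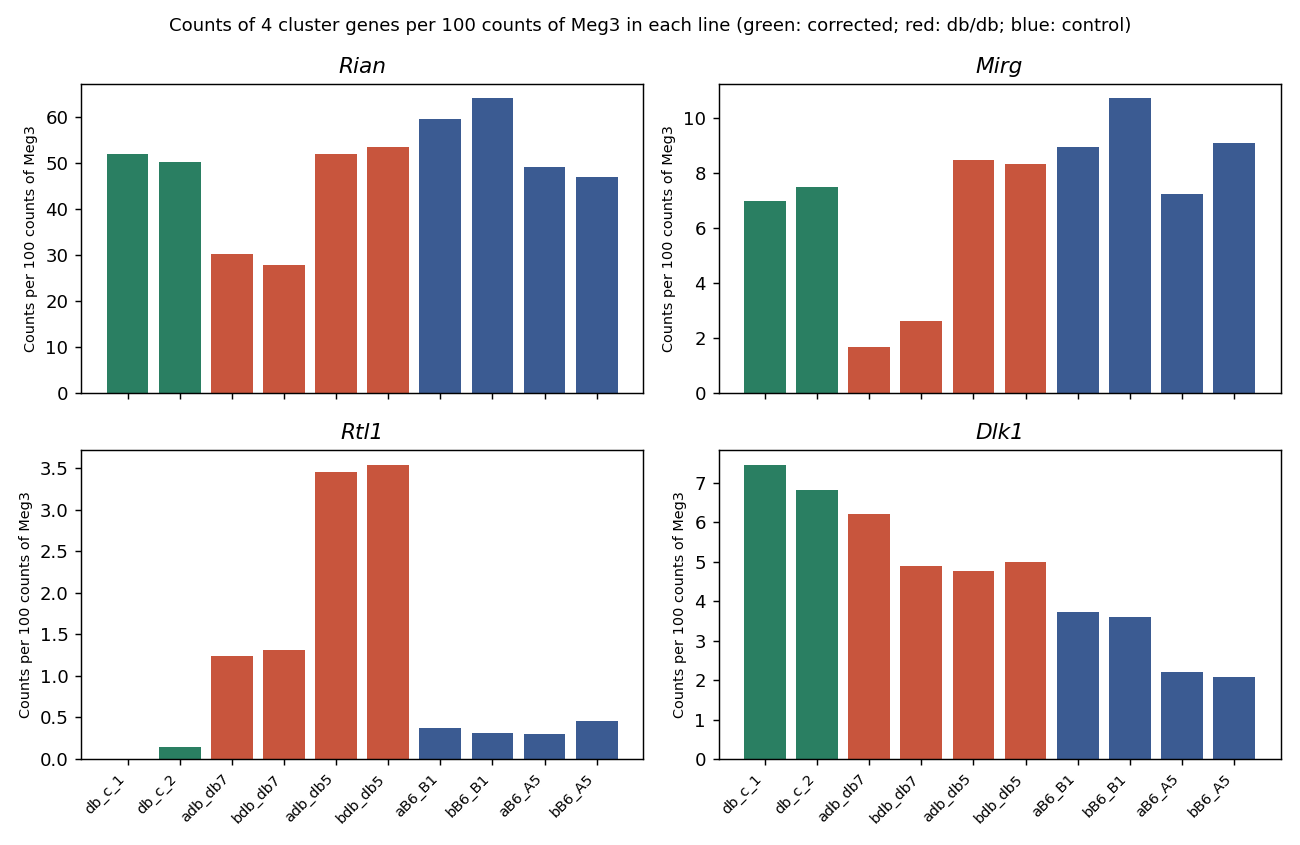
Counts of Rian, Mirg, Rtl1 and Dlk1 per 100 counts of Meg3 (y axes from 0) in each line (x axis), with corrected lines in green, db/db lines in red and control lines in blue. In db7 lines Rian stands at 30.2 and 27.8 and Mirg at 1.65 and 2.61, under every other line, and Rtl1 is highest in the db5 lines at 3.45 and 3.54.

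Duplicate libraries differed in Meg3 in the db7 and B1 lines. The second library over the first gave a ratio of Meg3 levels of 1.97 in adb_db7, 1.74 in bdb_db7, 1.31 in aB6_B1 and 1.47 in bB6_B1, against 0.879 to 1.07 in the other 5 lines with duplicates. Rian followed in the db7 lines, at 1.72 and 2.00, but stood at 1.04 and 1.02 in the B1 lines. Mirg had 1 and 3 counts in the libraries of adb_db7 and 1 and 7 in those of bdb_db7, and its ratio was 1.40 and 1.45 in the B1 lines, 0.582 in adb_db5 and 0.670 in db_c_1. In counts, Meg3 had 98 and 144 in the libraries of adb_db7 and 118 and 188 in those of bdb_db7. By library, Meg3 ranged from 2.89 to 15.7 CPM in the 8 db/db libraries, with no overlap with the 7 control libraries (37.5 to 71.2 CPM), while the 4 corrected libraries (36.8 to 41.6 CPM) overlapped with the control libraries.

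The window from Dlk1 to Dio3 also carries miRNAs. The RefSeq table holds 58 hairpin entries and 113 named mature arms in it, with 26 arms in Mirg, 6 in Rian, 3 in Meg3 and 11 opposite Rtl1. The 113 arms hold 104 different seeds (bases 2 to 8), and 9 seeds were shared by 2 arms. The arms listed next lie opposite Rtl1 and are complementary to its transcript, and are shown because they overlap the Rtl1 row on the other strand. Capitals mark the seed.
mmu-miR-431-5p: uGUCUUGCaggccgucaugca
mmu-miR-433-3p: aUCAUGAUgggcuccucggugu
mmu-miR-127-3p: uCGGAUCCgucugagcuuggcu
mmu-miR-434-3p: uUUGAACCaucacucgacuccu
mmu-miR-136-5p: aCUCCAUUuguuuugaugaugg

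These 5 arms have different seeds. Mature miRNAs have no poly(A) tail and were not measured in these libraries. The 67 miRNA rows of the window together held 6 counts in the 4 corrected libraries, 0 in the 8 db/db libraries and 14 in the 7 control libraries, and the 23 small nucleolar RNA rows held 2, 0 and 11 counts in the same groups.

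Another 18 rows lie in the window of 828275 bases from the start of Dlk1 to the end of Dio3, of which 11 had a count and 4 were tested. No group mean reached 1 CPM in any of them. The long noncoding RNA 4930511J24Rik (ENSMUSG00000112940, chr12:109911785-109913518, plus strand) falls outside the naming rule, as do the other 3 tested rows below, and all 4 were named after their values were seen. It had 0 counts in all 4 corrected and all 8 db/db libraries and 10 to 22 counts in each of the 7 control libraries, or 0.288 to 0.556 CPM by control line. Against the floor of 3 counts over a group, it was at least 18.2-fold lower in corrected lines and at least 36.3-fold lower in db/db lines than in control lines. The edgeR adjusted p for db/db against control was 0.0018, and 0.0817 when each shared name was counted once. Dio3os, transcribed away from Dio3, had a log2 fold change of -0.53 ± 0.61 (edgeR adjusted p = 0.585) for db/db against control. The pseudogene Gm3379 (0.18 ± 0.21, edgeR adjusted p = 0.596) and the noncoding RNA Gm34667 (-0.31 ± 0.30, edgeR adjusted p = 0.507) did not pass the threshold either.

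**Figure D4:**
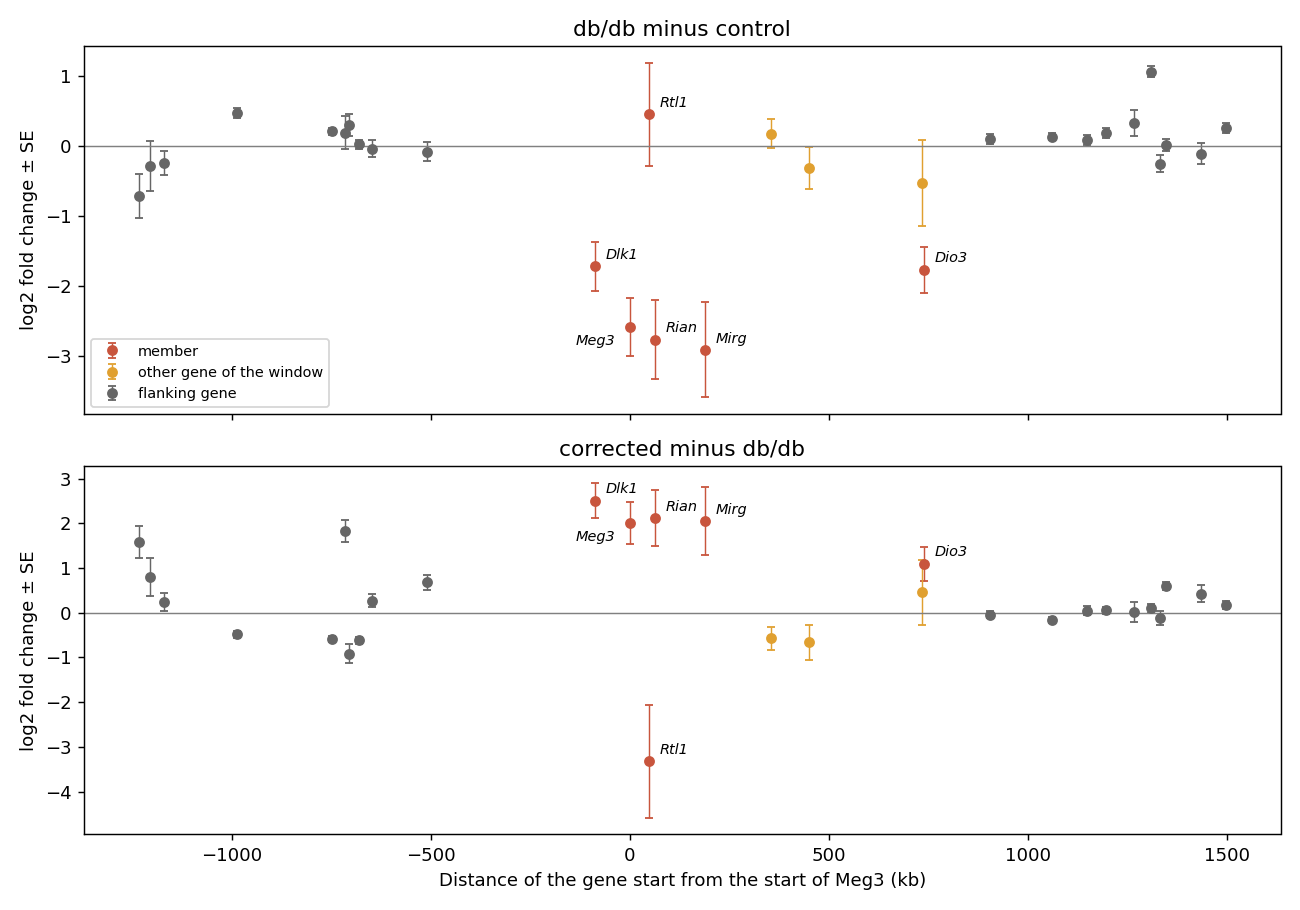
Log2 fold change ± SE (y axes) of db/db against control lines (top) and corrected against db/db lines (bottom) for the 6 cluster genes in red, 3 other tested genes of the window in orange and 20 flanking genes in grey, by the distance of the gene start from the start of Meg3 in kilobases. 4930511J24Rik is left out because db/db and corrected lines were at 0; flanking genes run from -0.72 to 1.07 in the top panel, while Meg3, Rian, Mirg, Dlk1 and Dio3 lie at -1.71 to -2.91.

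Genes on either side of the cluster were also compared. Over all genes tested, 16.9% were called between db/db and control lines and 36.7% between corrected and db/db lines. Of the 10 tested protein-coding genes on each side, 4 of 20 (20.0%) rose in db/db lines and 0 fell. The median log2 fold change of the 20 was 0.10, with values from -0.72 to 1.07. The neighbours of Dlk1 (Begain, Wdr25, Wars, Slc25a47 and Slc25a29) lay at -0.08 to 0.30 and those of Dio3 (Ppp2r5c, Dync1h1, Hsp90aa1, Wdr20 and Mok) at 0.09 to 0.33, and none of these 10 passed the threshold in this comparison. Between corrected and db/db lines 4 flanking genes rose and 4 fell (40.0% of 20), among them Slc25a29, a mitochondrial amino acid carrier, at a log2 fold change of 1.83 ± 0.25 (edgeR adjusted p = 0.00059), and Wars, a tryptophan tRNA ligase, at -0.62 ± 0.08 (edgeR adjusted p = 0.00038). When each shared name was counted once, 0 flanking genes passed between db/db and control lines and 6 between corrected and db/db lines. Without aB6_B1 or without bB6_B1, 2 passed in the first comparison, and without db_c_1, 5 passed in the second.

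The counts of this and the following lists stand beside 16.9% of all genes called between db/db and control lines. Between corrected and db/db lines that share was 36.7%. The proteins that write or guard imprints were compared as a list of 21 genes. Between db/db and control lines 3 rose and 0 fell, with a median log2 fold change of 0.075, and 1 was called without aB6_B1. Dnmt3a, a de novo DNA methyltransferase, held 45.1 ± 0.83 CPM in corrected lines (SD, n = 2), 41.3 ± 11.1 CPM in db/db lines and 25.6 ± 2.72 CPM in control lines (SD, n = 4 each). Its rise in db/db lines was 0.69 ± 0.17 on the log2 scale (edgeR adjusted p = 0.0236). Any link of Dnmt3a to Meg3 was not tested. By line Dnmt3a stood at 30.7 and 32.6 CPM in the db7 lines, against 50.7 and 51.0 CPM in the db5 lines. The call was lost in 4 of the 10 fits that leave out a line (without either db5 or either A5 line; highest adjusted p = 0.0545). Arid4b and Setdb1, a histone H3 lysine 9 methyltransferase, also rose, by 0.35 ± 0.08 and 0.44 ± 0.12 (edgeR adjusted p = 0.0195 and 0.0361), and lost the call in 1 and 6 of those fits: Arid4b without aB6_B1, and Setdb1 without either B1, db7 or corrected line.

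Between corrected and db/db lines 4 of the 21 rose and 4 fell, with a median of 0.032, and 2 were called without db_c_1 or without db_c_2. Zfp57, which binds methylated imprint control regions, rose by 0.39 ± 0.07 (edgeR adjusted p = 0.00169) to 412 ± 8.31 CPM in corrected lines, against 315 ± 18.9 CPM in db/db lines. Its partner Trim28 fell by 0.33 on the log2 scale (SE 0.08, edgeR adjusted p = 0.0124). Aff3, which in mouse embryonic stem cells binds the control region of this cluster, rose by 1.09 ± 0.27 (edgeR adjusted p = 0.0105), with 3.26 and 3.09 CPM in corrected lines, 0.846 and 1.36 CPM in db7 lines, and 1.95 and 1.78 CPM in db5 lines. Dnmt3l, the cofactor of de novo methylation, rose by 0.64 ± 0.21 (edgeR adjusted p = 0.0396), and Dppa3, which protects methylation in the early embryo, fell by 1.10 on the log2 scale (SE 0.26, edgeR adjusted p = 0.00953). The calls of Trim28, Aff3, Dnmt3l and Dppa3 were lost without either corrected line, Dnmt3l also without either db7 line, and none of these 4 passed when each shared name was counted once, while Zfp57 kept its call in both. Dnmt3b did not pass in either comparison, at 0.11 ± 0.05 and -0.03 ± 0.06 (edgeR adjusted p = 0.18 and 0.786).

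**Figure D5:**
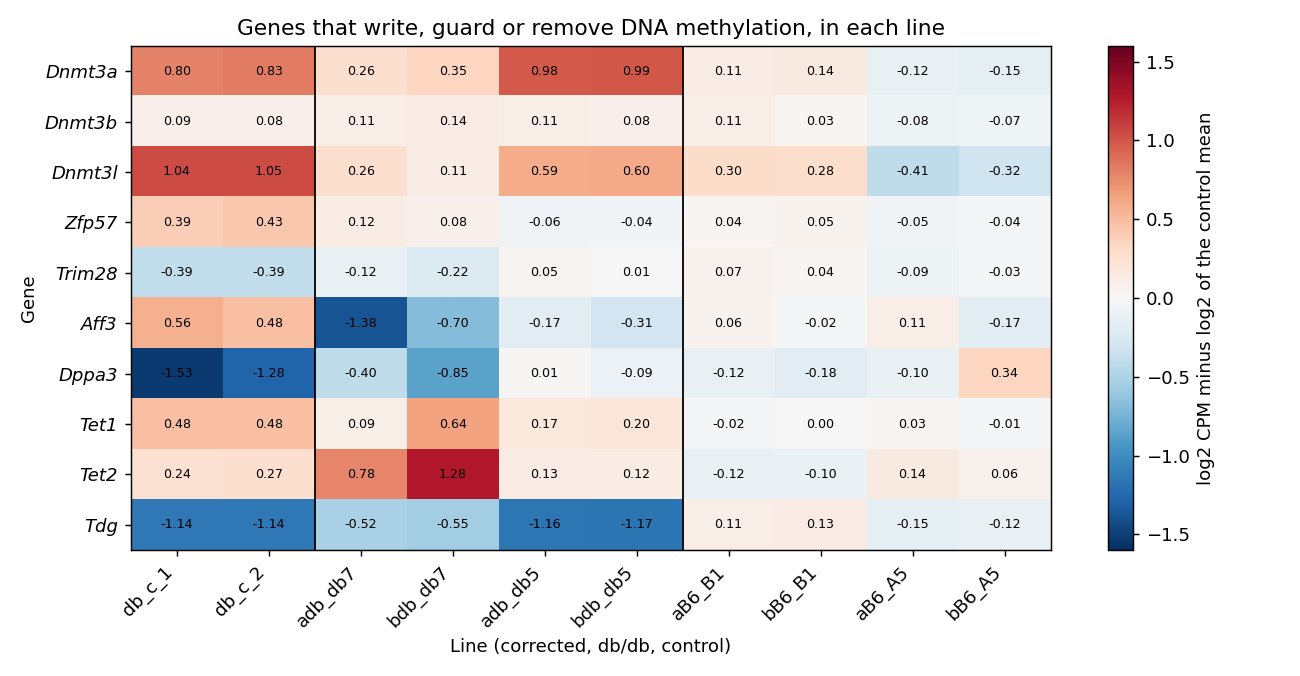
Log2 CPM minus log2 of the control mean (colour and printed values) for 10 genes that write, guard or remove DNA methylation (rows) in each line (columns), with black lines between corrected, db/db and control lines. Dnmt3a stands at 0.80 and 0.83 in corrected lines, 0.26 and 0.35 in db7 lines and 0.98 and 0.99 in db5 lines, and Tdg at -1.14 in both corrected lines, -0.52 and -0.55 in db7 lines and -1.16 and -1.17 in db5 lines.

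Of 9 genes of active demethylation, 0 rose and 2 fell between db/db and control lines, with a median log2 fold change of 0.006. Tdg, a DNA glycosylase that removes oxidised methylcytosine, held 65.0 ± 16.0 CPM in db/db lines and 115 ± 11.6 CPM in control lines (SD, n = 4 each), a log2 fold change of -0.82 ± 0.16 (edgeR adjusted p = 0.00805), and kept its call without any single line. Apobec1, a cytidine deaminase, fell by 0.74 on the log2 scale (SE 0.18, edgeR adjusted p = 0.0203) and lost the call without aB6_B1 or without bB6_B1 (highest adjusted p = 0.0582), with log2 fold changes of -0.84 to -0.64 over the fits that leave out a line. Tet1 and Tet2, which oxidise methylcytosine, did not pass, at 0.29 ± 0.11 and 0.66 ± 0.23 (edgeR adjusted p = 0.085 and 0.0751). Tet2 reached 425 and 599 CPM in the db7 lines, against 227 to 298 CPM in all other lines. Between corrected and db/db lines 3 of 9 rose and 0 fell, led by Tet3 at 1.22 ± 0.12 (edgeR adjusted p = 0.000124).

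The 12 genes of Polycomb repressive complex 2, which methylates histone H3 lysine 27, gave 3 higher and 1 lower between db/db and control lines, with a median of 0.029. Rbbp7, a histone-binding subunit encoded on chromosome X, rose by 0.94 ± 0.06 (edgeR adjusted p = 1.6e-05), and was the single gene of the 8 lists described here that passed in this comparison when each shared name was counted once (edgeR adjusted p = 0.039). Phf19 rose by 0.80 ± 0.12 and Suz12 by 0.29 ± 0.06 (edgeR adjusted p = 0.00243 and 0.0101). Between corrected and db/db lines 1 rose and 3 fell, with Eed at -0.50 ± 0.06 (edgeR adjusted p = 0.00031). Of 12 miRNA-processing genes, 1 rose between db/db and control lines (Dgcr8, 0.23 ± 0.06, edgeR adjusted p = 0.0292, lost without any control line and without adb_db7), and 3 rose and 3 fell between corrected and db/db lines. Ago4, an Argonaute protein, rose by 2.10 ± 0.21 to 5.31 ± 0.262 CPM in corrected lines, against 1.24 ± 0.276 CPM in db/db lines (edgeR adjusted p = 0.000135).

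The pathways of the 3 proteins were also counted. Of 20 tested Notch pathway genes, 1 rose and 4 fell between db/db and control lines, with a median log2 fold change of -0.022, and 2 were called without either B1 line, either corrected line or bdb_db7. Notch1, a receptor, fell by 0.75 on the log2 scale (SE 0.17, edgeR adjusted p = 0.0149), and Hey2, a target, by 0.56 (SE 0.12, edgeR adjusted p = 0.0134). Of 15 tested genes of thyroid hormone transport and response, 0 rose and 1 fell (median 0.06). It was Crym, a thyroid hormone-binding protein, at 1.10 ± 0.223 CPM in corrected lines (SD, n = 2), 0.216 ± 0.0653 CPM in db/db lines and 1.06 ± 0.330 CPM in control lines (SD, n = 4 each). Its log2 fold change was -2.29 ± 0.30 for db/db against control and 2.33 ± 0.34 for corrected against db/db (edgeR adjusted p = 0.0013 and 0.000818), and the second passed when each shared name was counted once (edgeR adjusted p = 0.0215). Of 10 tested relatives of Rtl1 and Peg10, 0 rose and 3 fell (median -0.518). They were Rtl8a and Rtl8b, near-identical copies between which reads can be divided wrongly, at -1.21 ± 0.13 and -1.24 ± 0.15 (edgeR adjusted p = 0.00043 and 0.000818), and Arc, a neuronal capsid-like protein, at -0.96 ± 0.16 (edgeR adjusted p = 0.00435).

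Of 42 tested imprinted genes of other clusters, 1 rose and 7 fell between db/db and control lines, with a median log2 fold change of -0.14, and 4 were called without either B1 line or adb_db7. Between corrected and db/db lines 13 rose and 7 fell, with a median of 0.18, and 10 were called without either corrected line. Plagl1, a zinc finger factor, held 26.7 ± 0.644 CPM in corrected lines (SD, n = 2), 10.8 ± 2.35 CPM in db/db lines and 23.9 ± 1.59 CPM in control lines (SD, n = 4 each), with log2 fold changes of -1.14 ± 0.14 and 1.30 ± 0.16 (edgeR adjusted p = 0.00091 and 0.000406). Igf2, a growth factor, and H19, the noncoding RNA beside it, rose by 3.02 ± 0.24 and 1.93 ± 0.23 in the corrected lines relative to db/db lines (edgeR adjusted p = 4.55e-05 and 0.000294). Impact rose by 0.42 ± 0.08 in db/db lines and fell by 0.95 on the log2 scale (SE 0.10) in the corrected lines relative to db/db lines (edgeR adjusted p = 0.00588 and 0.000142). Over the 8 lists above, 27 genes were called between db/db and control lines and 53 between corrected and db/db lines. When each shared name was counted once, 1 and 27 were called. Leaving out aB6_B1 or bB6_B1 gave 15 and 16 in the first comparison, and leaving out db_c_1 or db_c_2 gave 25 and 24 in the second.

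Markers of other cell types also differed between the groups. In bulk RNA, fewer cells of a type and less RNA per cell cannot be told apart. Of 19 tested fibroblast markers 0 rose and 13 fell in db/db against control lines (median -0.79; 7 and 8 were called without aB6_B1 or bB6_B1, and 8 without bdb_db5), and the sum of 10 defining markers was 150 to 190 CPM in corrected lines, 107 to 167 CPM in db/db lines and 215 to 299 CPM in control lines, with 0 genes at 0 and 2 under 1 CPM in each group mean. Within the db/db group that sum was 167 and 163 CPM in db7 lines and 115 and 107 CPM in db5 lines, the opposite order to Meg3. The full list of 20 fibroblast markers did not keep that order. Its sum was 1232 and 1406 CPM in db7 lines and 1265 and 1199 CPM in db5 lines, which overlap. Of 10 tested markers of the 2-cell-like state, which a small share of pluripotent cells enter, 0 rose and 9 fell in db/db against control lines (median -1.95). Their sum over 11 genes was 17.9 and 20.0 CPM in corrected lines, 4.72 and 5.07 CPM in db7 lines, 13.6 and 14.5 CPM in db5 lines and 37.2 to 44.2 CPM in control lines, the same order as the maternal RNAs, with 1 gene at 0 and 5 to 8 under 1 CPM in each group mean. For 9 extraembryonic endoderm markers, the corrected lines summed to 18.99 and 17.3 CPM, against 10.4 to 12.4 CPM for the controls. The db7 lines held 9.44 and 9.34 CPM and the db5 lines 17.0 and 16.0 CPM. In the db/db mean 7 of these 9 genes were under 1 CPM, and Sox7 (6.11 CPM) and Gata4 (4.47 CPM) were highest. The corrected mean had 3 genes under 1 CPM and the control mean 6. On the full list of 18 markers, the db5 sums (656 and 649 CPM) lay within the control range (638 to 739 CPM). There the db7 sums (540 and 549 CPM) lay under it. Of the other lists, 3 of 16 tested extraembryonic endoderm markers rose and 4 fell, 1 of 11 tested mesoderm markers rose and 1 fell, 2 of 10 neural markers rose and 2 fell, and 2 of 18 iPSC markers rose and 3 fell between db/db and control lines. Leaving out aB6_B1 gave 4, 0, 3 and 2 calls in these lists. When each shared name was counted once, 0 genes of the 6 marker lists were called between db/db and control lines. In corrected against db/db lines, 11 of 16 extraembryonic endoderm markers rose and 0 fell (median 0.97), 8 of 19 fibroblast markers rose and 0 fell (median 0.24), 3 of 11 mesoderm markers rose and 0 fell, 2 of 10 markers of the 2-cell-like state rose and 0 fell, 0 of 10 neural markers rose and 5 fell, and 1 of 18 iPSC markers rose and 6 fell. When each shared name was counted once, 7, 4, 3, 0, 4 and 2 of these were called, and without db_c_1 7, 3, 2, 0, 4 and 1. Without db_c_2 these were the same counts, except for 6 fibroblast markers. The part of these markers in the levels of the cluster was not tested.

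The genes outside the window whose levels were most like those of Meg3 were found by Pearson correlation over the 10 lines, among 10464 genes of at least 5 CPM. The lines fall into 3 groups and share names, so the values describe likeness only. Pros1, an anticoagulant cofactor, had r = 0.994, with 42.0 and 41.8 CPM in corrected lines, 14.2 and 14.4 CPM in db7 lines, 23.0 and 24.3 CPM in db5 lines, and 45.5 to 50.6 CPM in control lines. D16Ertd472e (0.991), Tes (0.990), Adgrb1 (0.988) and Serpinh1 (0.988) followed. The lowest correlations were those of Khdrbs1 (-0.992), Yy2 (-0.986) and Mocs1 (-0.981). Within the cluster, where the limit of 5 CPM was not applied, r with Meg3 was 0.991 for Rian and 0.982 for Mirg. It was 0.961 for Dio3, 0.906 for Dlk1 and 0.154 for Rtl1.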

How the data were processed

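Stranded TruSeq libraries were prepared from poly(A) RNA, per the labels' protocols. The deposited values are the authors' estimated counts per gene. The submitters' processing notes name kallisto and GRCm38, while its version, index and strand setting were not found in the labels or headers. Of 52143 rows, 51336 matched GENCODE M21, which gave names and positions.

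Counts were rounded in each library and summed per line, the replicate, in groups read from the labels. Nothing in the labels says that lines or duplicates are separate cultures, so a p-value reflects only how these lines vary, which may be technical. After filterByExpr and TMM scaling, edgeR 4.0.16 (quasi-likelihood test, 3 groups in 1 fit, R 4.3.3) was run with Benjamini-Hochberg adjustment over 19700 genes and a threshold of 0.05, after a test on simulated data. CPM values use TMM-scaled library sizes, and fold changes edgeR's default prior count. Intervals are exact Poisson intervals for counting error only. DESeq2 1.42.0, other scalings, filters and units were alternatives. Tables were made with pandas 2.3.3 in Python 3.11.15 and drawn with matplotlib 3.10.9.

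The members and gene lists were chosen with earlier results of these data known. Genes were named by a rule: the members, window genes of at least 1 CPM, the 5 nearest tested protein-coding genes per side, up to 4 and 3 called genes of lowest p per list in the first and second comparison, 9 fixed regulators, and the 5 most and 3 least like Meg3. Some of these are counted and not named.

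Libraries with the same duplicate number deviated together: in 12 pairs of a control and a db/db line, the second library's deviations from the line mean had a Spearman rho of 0.140 to 0.546 over 9148 genes. Pearson's r was -0.050 to 0.613, and 0.227 to 0.548 without 3 genes that differed by over 3 on the log2 scale between duplicates. Duplicates were summed, so a block enters only fits on libraries.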

Additional observations from a re-analysis of the deposited data

Results flagged for a closer look

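By library, Mirg had 2.06 CPM in the second library of db_c_1, against 3.08 to 3.12 CPM in the other 3 corrected libraries. The gap to the nearest library was 0.964 of the range of the 4 libraries, past Dixon's 95% critical value. It was the single value past its limit in 30 tests of the 6 members by group, and chance alone passes about 1 in 20. The 4 libraries come from 2 lines. The cause was not tested.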

How the results depend on the processing

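All 18 fold changes of the members (6 genes, 3 comparisons) kept their sign in the 20 alternatives each. For db/db against control, Meg3 ran from -2.88 to -2.33. In that comparison Rtl1 ran from 0.0052, without adb_db5, to 0.79. Its main fit was 0.46 ± 0.74 (SE), so its sign is not settled. With library size alone, Rian was at -0.51 and Dlk1 at 0.92 on the log2 scale for corrected against control. In the corrected lines Rtl1 had 4 counts, all in db_c_2, so a fit without db_c_2 leaves that group at 0 and its fold change is unbounded. For corrected against control, Rtl1 was at -2.05 with a prior count of 2, against -2.87 in the main fit. Leaving out a line gave -6.80 to -1.85 there, and -7.26 to -2.31 for corrected against db/db. Members past the threshold were 0 for db/db against control and 1 for corrected against db/db with the shared name as the unit. For corrected against control they were 4 with only the compared groups, 2 with libraries as samples, with or without the replicate block, and 1 with DESeq2. Leaving out a line gave 1 to 5 members for corrected against db/db. Genes called over all genes were 3332, 7235 and 6537 in the 3 comparisons, 34, 3281 and 2547 with the shared name, and, for db/db against control, 7247 with libraries as samples and 7042 with the replicate block. Leaving out a line gave 1991 to 3211, 3113 to 7638 and 2377 to 7236. Flanking genes called were 0 and 5 with the shared name for db/db and for corrected against control, 8 with libraries with or without the block for db/db against control, and 13 with libraries without the block for corrected against db/db. Leaving out a line gave 2 to 4, 5 to 9 and 5 to 9. Genes of the 8 pathway lists called were 27, 53 and 53, and 1, 27 and 30 with the shared name. Libraries gave 57 without and 55 with the block for db/db against control, and 85 and 84 for corrected against control, and only the compared groups gave 17 for db/db against control. Leaving out a line gave 15 to 26, 24 to 59 and 25 to 60. The lowest of these counts came without aB6_B1 (1991 of 3332) for db/db against control, and without db_c_1 or db_c_2 in the other comparisons. Against libraries without the block, the block moved no count by over 1.5 times. The cause of the other changes was not tested. Of 50 named genes called between db/db and control lines, 33 kept the call without any single line and 1 with the shared name. Of 52 between corrected and db/db lines, 31 and 34 did. Depth limits Rtl1 in all lines and Mirg in the db7 lines.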
